A study of Mus musculus with 16 samples.

Results

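The 10 genes described here encode the enzymes that make and break down polyamines and the proteins that set the amount of ornithine decarboxylase: Odc1, Amd1, Srm, Sms, Smox, Sat1, Azin1, Azin2, Oaz1 and Oaz2. Their members on the array were chosen by name, as every probe whose RefSeq accession belongs to one of these genes. The rule found 19 probes of 9 genes among the 55681 probes of the array, and all 19 met the condition for testing, a signal well above background on all arrays of 1 group or more. No probe carried an accession of Amd1, so that gene has no value here. The arrays measured RNA of quadriceps muscle from 16 male mice, all aged 8 weeks, with 1 mouse per array and 4 mice per group. The groups were mFoxO-TKO mice fasted for 24 h, mFoxO-TKO mice with free access to food, wild-type (WT) mice fasted for 24 h and WT mice with free access to food. mFoxO-TKO mice lack FoxO1, FoxO3 and FoxO4 in skeletal muscle (mFoxO1,3,4-/-), deleted by a Cre recombinase under the human skeletal actin (HSA) promoter. That promoter acts in muscle fibres, so the other cells of the muscle keep the 3 genes.

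Polyamines are small positively charged molecules that bind RNA and DNA and are needed for growth and translation. Ornithine decarboxylase makes putrescine from ornithine, and spermidine synthase and spermine synthase then add aminopropyl groups, which adenosylmethionine decarboxylase supplies. Spermine oxidase turns spermine back into spermidine, and an acetyltransferase marks polyamines for oxidation or export. Antizymes bind ornithine decarboxylase and deliver it to the proteasome, and antizyme inhibitors, which resemble the enzyme but do not make putrescine, free it from them. In muscle the pathway is known for its link to fibre size and to androgens. FoxO transcription factors, which insulin signalling keeps out of the nucleus, drive much of the gene expression of fasted muscle.

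The start regions of Odc1 and Smox are shown because these were the members with the largest differences between mFoxO-TKO and WT mice, Odc1 in the fasted state and Smox in the fed state. Both windows come from RefSeq (GRCm38.p6) and run from 250 bases before the annotated start to 50 bases after it, on chr12:17544623-17544922 (plus strand) for Odc1 and on chr2:131491612-131491911 (plus strand) for Smox. Capitals mark matches on either strand to 4 searched motifs: the FoxO core TGTTTAC, the E-box CACGTG, the cAMP response element core TGACG and the GC box GGGCGG.
Odc1: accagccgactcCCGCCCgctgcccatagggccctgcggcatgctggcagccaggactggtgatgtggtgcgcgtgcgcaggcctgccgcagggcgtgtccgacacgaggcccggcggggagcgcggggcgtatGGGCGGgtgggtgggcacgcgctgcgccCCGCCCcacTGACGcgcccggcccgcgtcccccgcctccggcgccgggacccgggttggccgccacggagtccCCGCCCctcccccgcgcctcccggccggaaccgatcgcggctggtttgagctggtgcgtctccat
Smox: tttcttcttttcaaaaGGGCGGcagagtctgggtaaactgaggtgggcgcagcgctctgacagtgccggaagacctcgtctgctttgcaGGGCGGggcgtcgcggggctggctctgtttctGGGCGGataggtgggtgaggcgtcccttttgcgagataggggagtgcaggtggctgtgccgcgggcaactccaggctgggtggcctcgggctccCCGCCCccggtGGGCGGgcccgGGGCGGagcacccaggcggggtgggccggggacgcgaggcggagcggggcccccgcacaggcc
The Odc1 window held 4 GC boxes and 1 cAMP response element core, which begins at position -79 from the start and shares no base with a GC box. The Smox window held 6 GC boxes and none of the other 3 motifs, and no matches overlapped in either window. Among the 32851 mouse windows of this length that were searched, 35.7% held a GC box, 20.8% the cAMP response element core, 7.15% the E-box and 3.65% the FoxO core. Any window under a member's name on a chromosome that holds none of the 10 genes was left out. The GC content was 78% for Odc1 and 71% for Smox, against a median of 52.7% over all windows. The search covered windows for 7 of the 10 genes, among them Amd1, and the letters of the FoxO core were in none of them. Probe sequences were not used here.

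The deletion was visible for Foxo1 and Foxo4 in the labelled groups. The 2 Foxo1 probes were lower in mFoxO-TKO than in WT muscle, 10.7-fold and 6.79-fold in fasted mice and 3.43-fold and 2.69-fold in fed mice. Both stayed well above background on every mFoxO-TKO array. With fasting in mFoxO-TKO they changed by 0.66 ± 0.21 (adjusted p = 0.0582) and 1.04 ± 0.25 (adjusted p = 0.0173). No mFoxO-TKO array and every WT array had a Foxo4 signal well above background, on both probes, so Foxo4 was at least 4.46-fold lower in mFoxO-TKO muscle in either state. The single Foxo3 probe was dim and passed in neither knockout comparison. Its mean was lower in mFoxO-TKO than in WT muscle in fasted mice (-0.78 ± 0.27, adjusted p = 0.0724). In fed mice its mean was higher in mFoxO-TKO (0.71 ± 0.27, adjusted p = 0.276), and the groups did not overlap. Which of these probes lie in deleted exons is unknown here. Slide 1 carried replicates 1 and 2 of each group, and slide 2 carried replicates 3 and 4. Each group lay in 1 column of arrays, so array position and group cannot be told apart. Arrays had 45.0% to 75.2% of their spots well above background and 0 saturated spots. Fasted mFoxO-TKO replicate 1 stood apart on the second principal component (a score of 95.3, against 33.4 for the next array), and leaving it out ended 2 of the calls below, both named where they occur. The 8 muscle fibre markers, among them Acta1, Ckm and Myh4, had 0 calls in any comparison. In bulk muscle, fewer cells of a type and less RNA per cell cannot be told apart.

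A relative level below is the log2 processed signal of a probe minus the 75th percentile of its array. Changes are given as mean relative level of one group minus that of the other, ± the standard error of the limma fit, and a probe passed at an adjusted p under 0.05 over all 28570 probes tested. Each change is based on 4 arrays per group unless another number is given. In mFoxO-TKO muscle, 4 of 19 member probes passed in fasted against fed mice, against 10.3% of all probes. Of these, 2 were higher (Srm), against 5.01% of all probes, and 2 lower (Azin1), against 5.31% of all probes. In WT muscle, 10 of 19 passed in fasted against fed mice, against 24.3% of all probes. Of these, 6 were higher (Odc1, Srm, Sat1), against 12.2% of all probes, and 4 lower (Azin1, Oaz2), against 12.1%. Among fasted mice, mFoxO-TKO differed from WT on 8 of 19 probes, against 12.3% of all probes. There 7 were lower (Odc1, Srm, Smox), against 6.9% of all probes, and 1 higher (Azin1), against 5.38%. That split depends on the scaling, with 7 lower and 4 higher when the 75th percentile is taken over spots well above background on all arrays, and 6 lower and 2 higher with quantile scaling. Among fed mice, 4 of 19 passed, against 1.36% of all probes. There 3 were lower (Odc1, Smox), against 0.809% of all probes, and 1 higher (Azin1), against 0.55%. The fasting effect itself differed between the genotypes on 3 of 19 probes, against 2.16% of all probes, and these were the 3 probes of Odc1, all lower, against 1.4% of all probes. The 4 mice of each group did not overlap on 5 of 19 probes for fasting in mFoxO-TKO (17.0% of all probes) and on 9 of 19 for fasting in WT (28.5% of all probes). They did not overlap on 8 of 19 for the knockout in fasted mice (15.8% of all probes) and on 8 of 19 in fed mice (10% of all probes). The median change over the 19 probes was 0.11 for fasting in mFoxO-TKO, with 0.01 over all probes, and -0.02 for fasting in WT, with -0.03 over all probes. For the knockout it was -0.32 in fasted mice, with 0.01 over all probes, and -0.05 in fed mice, with -0.02 over all probes. Probes of 1 gene share their target and are not separate evidence.

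**Figure D1:**
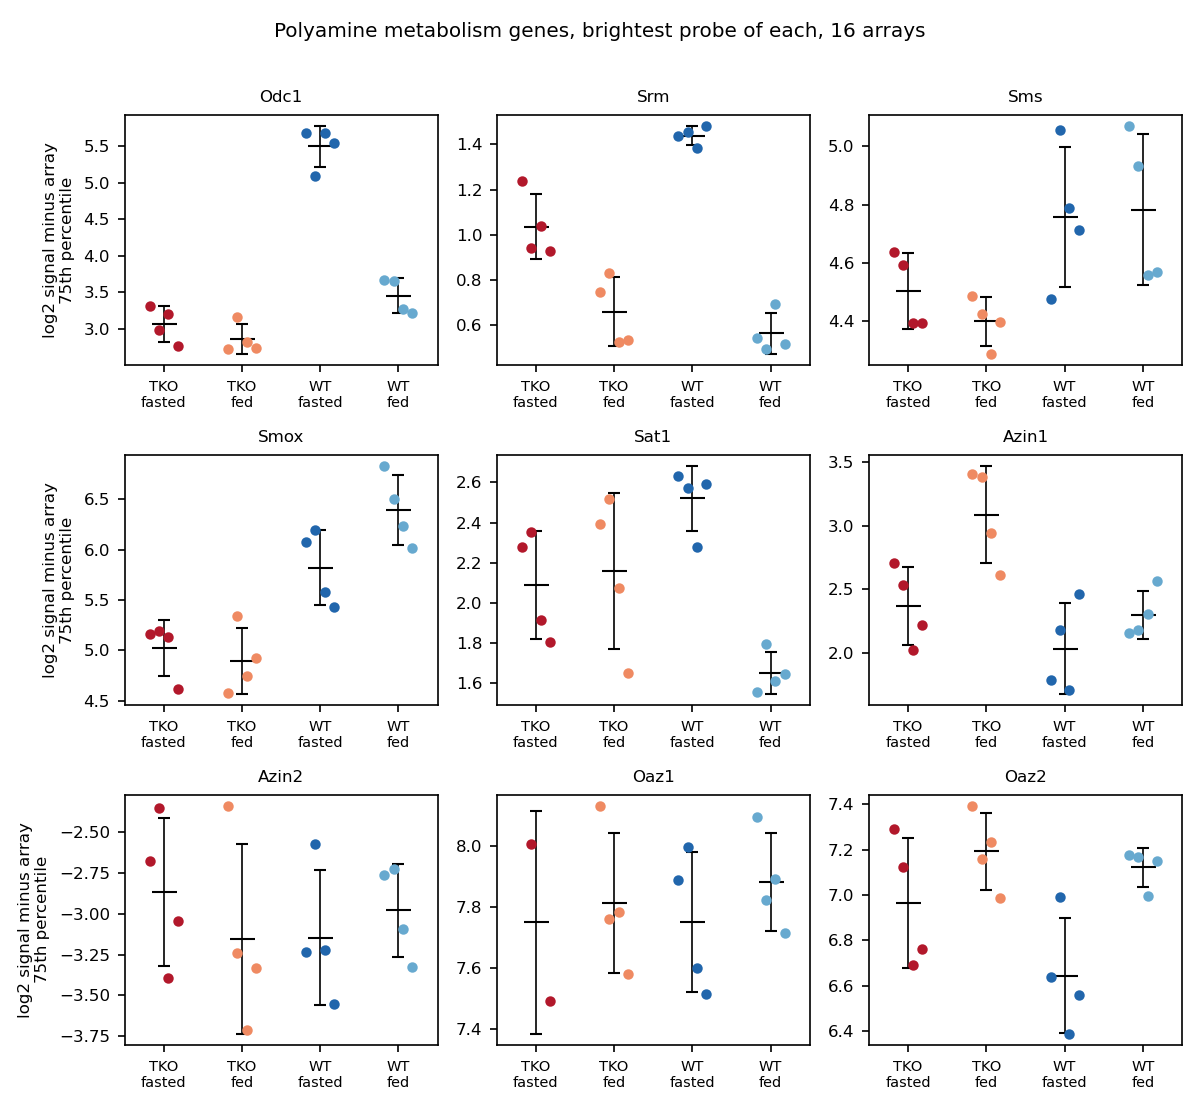
Relative level (log2 signal minus the 75th percentile of the array) of the brightest probe of each of 9 polyamine genes on 16 arrays; points are mice, bars the mean ± SD of a group, and TKO stands for mFoxO-TKO. The 4 fasted WT points of Odc1, between 5.09 and 5.67, lie above all other groups, and the mFoxO-TKO points of Smox lie below the WT points.

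Odc1, the first enzyme of polyamine synthesis, was the member with the largest change. Its mRNA rose in fasted WT muscle, whereas its fasting effect in mFoxO-TKO muscle passed on none of 3 probes. On the brightest probe (A_55_P1995173) the relative levels were 3.31, 2.99, 3.21 and 2.76 in fasted mFoxO-TKO mice and 2.73, 3.16, 2.83 and 2.74 in fed mFoxO-TKO mice. They were 5.67, 5.09, 5.67 and 5.54 in fasted WT mice and 3.66, 3.65, 3.28 and 3.22 in fed WT mice. The fasted WT mice stood above all other mice, the fed WT mice stood above the fed mFoxO-TKO mice and overlapped the fasted ones, and the mFoxO-TKO groups overlapped each other. The fasting effect was 0.20 ± 0.17 in mFoxO-TKO (95% interval -0.16 to 0.57, adjusted p = 0.528) and 2.04 ± 0.17 in WT, a 4.11-fold rise (adjusted p = 1.84e-06). The difference between these effects was -1.84 ± 0.24 (adjusted p = 0.00128). Fasted mFoxO-TKO muscle had 5.37-fold less Odc1 signal than fasted WT muscle (change -2.42 ± 0.17, adjusted p = 5.84e-07).

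The other 2 Odc1 probes followed the same order of groups. The second probe (A_52_P436238) read 1.24, 0.69, 0.70 and 0.08 in fasted mFoxO-TKO mice and -0.14, 1.03, -0.07 and 0.17 in fed mFoxO-TKO mice, against 4.26, 3.39, 3.76 and 3.33 in fasted WT mice and 1.34, 1.26, 0.54 and 0.71 in fed WT mice. Its fasting effects were 0.43 ± 0.30 in mFoxO-TKO and 2.73 ± 0.30 in WT, with a difference of -2.29 ± 0.43 (adjusted p = 0.0127). The dimmest probe (A_55_P1982818) had relative levels between -0.18 and -0.03 in fasted and between -0.61 and -0.27 in fed mFoxO-TKO mice, against 1.96 to 2.93 in fasted WT and 0.33 to 1.01 in fed WT mice. On it fasting changed Odc1 by 0.28 ± 0.20 in mFoxO-TKO and by 1.70 ± 0.20 in WT, and the difference was -1.43 ± 0.28 (adjusted p = 0.0161). On that probe no 2 of the 4 groups overlapped. The fasted knockout difference was -3.01 ± 0.30 and -2.48 ± 0.20 on these 2 probes.

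Within a single slide, with 2 mice per group, the Odc1 fasting effect in WT passed on all 3 probes on each slide. On the brightest probe it was 1.72 on slide 1 and 2.36 on slide 2 (adjusted p of 0.0234 and 0.0016). The difference between genotypes kept its direction within each slide (-1.52 on slide 1 and -2.16 on slide 2 for that probe) but did not pass there (adjusted p of 0.364 and 0.0566). No single mouse decided the fasting effect in WT, the fasted knockout difference or the difference between genotypes, all of which passed on the 3 probes without any 1 of the 16 arrays. Among fed mice, mFoxO-TKO was lower than WT on the dimmest probe alone (-1.05 ± 0.20, 2.07-fold, adjusted p = 0.0161), with -0.59 ± 0.17 and -0.71 ± 0.30 on the others (adjusted p of 0.133 and 0.37). That fed call was lost without fed WT replicate 1, fed WT replicate 2 or fed mFoxO-TKO replicate 3 (adjusted p up to 0.0671). With no filter on dim probes, the dimmest probe lost both this call (adjusted p = 0.0619) and that of the difference between genotypes (adjusted p = 0.0692).

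**Figure D2:**
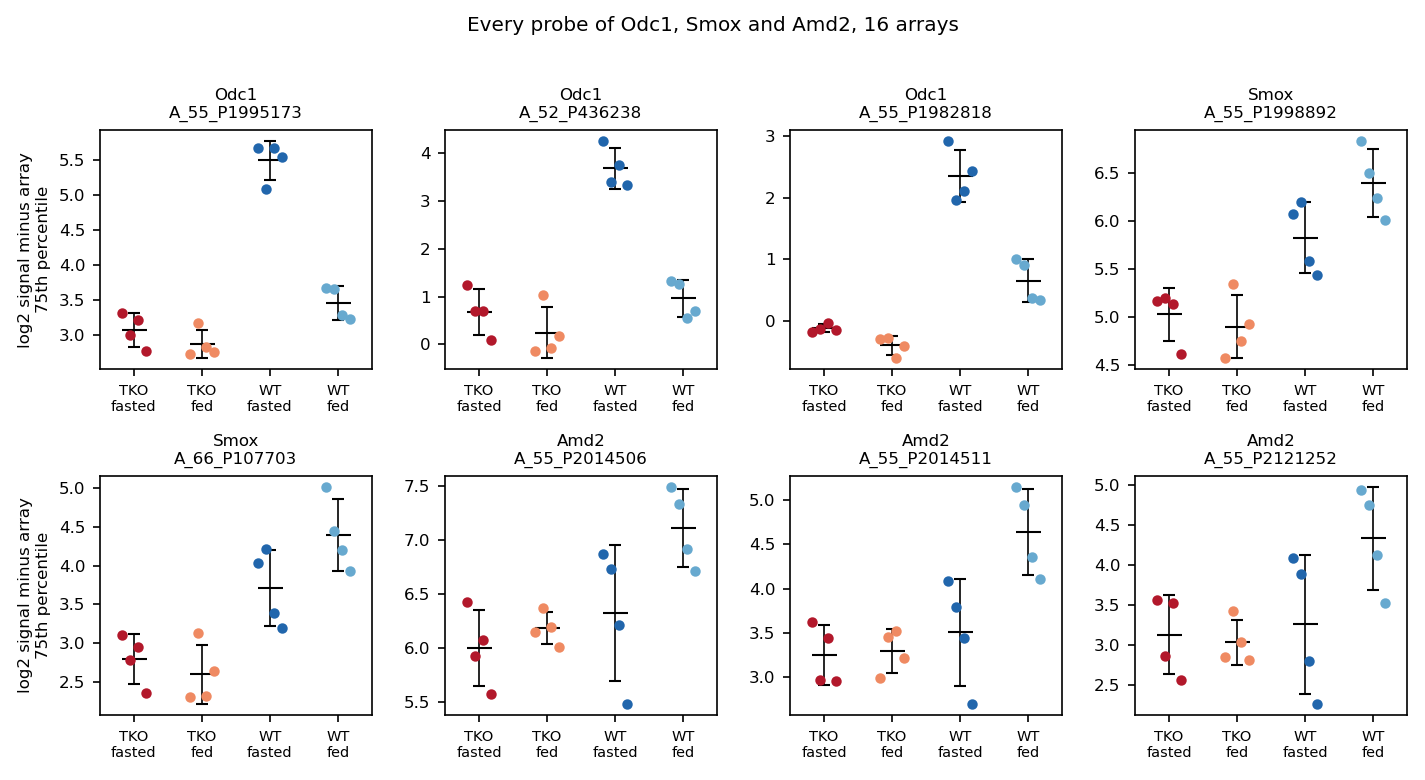
Relative level (log2) on 16 arrays for every probe of Odc1 and Smox and for 3 probes that carry the accession of Amd2; points are mice, bars the mean ± SD, and TKO stands for mFoxO-TKO. On all 3 Odc1 probes the fasted WT group is highest, and on both Smox probes and all 3 Amd2 probes the fed WT group has the highest mean.

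Srm encodes spermidine synthase. It rose with fasting in WT muscle under every alternative, while its rise in mFoxO-TKO muscle and its lower fasted level there passed under some alternatives and not under others. The brighter probe (A_51_P300709) read 1.24, 0.94, 1.04 and 0.93 in fasted mFoxO-TKO mice and 0.75, 0.83, 0.52 and 0.53 in fed mFoxO-TKO mice. It read 1.44, 1.45, 1.38 and 1.48 in fasted WT mice and 0.54, 0.49, 0.69 and 0.52 in fed WT mice. Every fasted mouse stood above every fed mouse of either genotype, and the 4 fasted WT mice above the 4 fasted mFoxO-TKO mice, while the fed groups overlapped. The fasting effect was 0.38 ± 0.10 in mFoxO-TKO (1.3-fold, adjusted p = 0.0322) and 0.88 ± 0.10 in WT (1.84-fold, adjusted p = 3.22e-05). On the second probe (A_55_P2002376) it was 0.46 ± 0.12 in mFoxO-TKO (adjusted p = 0.0204) and 0.97 ± 0.12 in WT (adjusted p = 3.3e-05). The difference between the effects was -0.50 ± 0.15 and -0.51 ± 0.16 and did not pass (adjusted p of 0.108 and 0.145). Fasted mFoxO-TKO muscle was lower than fasted WT muscle, with changes of -0.40 ± 0.10 and -0.48 ± 0.12 (adjusted p of 0.019 and 0.0132).

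Within slides, the Srm fasting effect in WT was 0.93 and 0.83 on the brighter probe and passed on both slides. The effect in mFoxO-TKO was 0.30 on slide 1 and 0.45 on slide 2 and passed on neither (adjusted p of 0.412 and 0.0829). It was lost on both probes without fed mFoxO-TKO replicate 3 or 4 or fasted mFoxO-TKO replicate 3, and on the brighter probe also without fasted mFoxO-TKO replicate 1 (adjusted p up to 0.0974). The fasted knockout call of the brighter probe was lost without fasted mFoxO-TKO replicate 2 or 4 (adjusted p up to 0.0607). On both probes the mFoxO-TKO fasting call and the fasted knockout call were lost with no filter on dim probes (adjusted p from 0.0673 to 0.147) and with only the 2 compared groups in the fit (adjusted p from 0.0539 to 0.123). Both calls were also lost on both probes within each slide. The fasted knockout call of the second probe was also lost with normexp background correction (adjusted p = 0.0631).

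Sms, which encodes spermine synthase, had 3 probes and 0 calls in the 5 comparisons. On the brightest (A_55_P2115995) the relative levels ran from 4.39 to 4.64 in fasted and from 4.29 to 4.49 in fed mFoxO-TKO mice, against 4.48 to 5.05 in fasted and 4.56 to 5.07 in fed WT mice. The fasting effect was 0.11 ± 0.14 in mFoxO-TKO and -0.02 ± 0.14 in WT, with 95% intervals of -0.20 to 0.41 and -0.33 to 0.28. The knockout changed this probe by -0.25 ± 0.14 in fasted mice (adjusted p = 0.31). Among fed mice the change was -0.38 ± 0.14 (adjusted p = 0.279), and the groups did not overlap. On the other 2 probes the fed changes were 0.06 ± 0.16 and -0.05 ± 0.16. The other 2 probes had lower means in fasted mFoxO-TKO than in fasted WT muscle, with a change of -0.32 ± 0.16 each, short of the threshold (adjusted p of 0.234 for A_55_P1998309 and 0.229 for A_55_P2025911). With the replicate number as a block, which marks slide and row of the array, both passed (adjusted p of 0.023 and 0.0163), and A_55_P2025911 passed with normexp as well (adjusted p = 0.0227).

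Adenosylmethionine decarboxylase, the enzyme that supplies aminopropyl groups, is encoded by Amd1. The array holds 3 probes with the accession of Amd2, an intronless near copy of Amd1 in the mouse genome whose RefSeq entry lists Amd1 as a synonym. Signal from the 2 genes may not be separable on these probes, so the values are given as uncertain and outside the member counts. The brightest (A_55_P2014506) read 6.42, 5.92, 6.07 and 5.57 in fasted mFoxO-TKO mice and 6.15, 6.37, 6.20 and 6.01 in fed mFoxO-TKO mice, against 6.87, 6.73, 6.22 and 5.48 in fasted WT mice and 7.49, 7.34, 6.92 and 6.71 in fed WT mice. All 4 fed WT mice were above every fed mFoxO-TKO mouse, and the fasted groups overlapped. Fasting changed the 3 probes by -0.18 ± 0.27, -0.05 ± 0.29 and 0.10 ± 0.40 in mFoxO-TKO. In WT the changes were -0.79 ± 0.27 (adjusted p = 0.0489), -1.13 ± 0.29 (A_55_P2014511, adjusted p = 0.0105) and, on the third, -1.08 ± 0.40 (adjusted p = 0.0642). Among fed mice, mFoxO-TKO was lower on A_55_P2014511 (-1.34 ± 0.29, adjusted p = 0.036), with -0.93 ± 0.27 and -1.30 ± 0.40 on the other probes (adjusted p of 0.137 and 0.16). With the replicate block these other probes passed as well (adjusted p of 0.0213 and 0.044). The call at 0.0489 was lost in 11 of the 16 fits that left out 1 array (adjusted p up to 0.136), and the fed knockout call without any 1 of the fed mice other than fed WT replicate 4 (adjusted p up to 0.125). Both were lost with no filter on dim probes (adjusted p of 0.11 and 0.111).

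Smox encodes spermine oxidase. It was the member with the largest difference between fed mFoxO-TKO and fed WT muscle, with less signal in the knockout, and its lower level in fasted mFoxO-TKO muscle passed under some alternatives and not under others. The brighter probe (A_55_P1998892) read 5.16, 5.19, 5.13 and 4.62 in fasted mFoxO-TKO mice and 4.58, 5.34, 4.75 and 4.92 in fed mFoxO-TKO mice. It read 6.08, 6.20, 5.58 and 5.44 in fasted WT mice and 6.83, 6.50, 6.23 and 6.01 in fed WT mice. Every WT mouse stood above every mFoxO-TKO mouse, whether fed or fasted, and the fasted and fed mice of each genotype overlapped. Among fed mice, the change was -1.50 ± 0.23 (2.82-fold lower in mFoxO-TKO, adjusted p = 0.00339) on this probe and -1.80 ± 0.28 (3.48-fold lower, adjusted p = 0.00425) on the other (A_66_P107703), which carries the accession of another Smox transcript. Among fasted mice the changes were -0.80 ± 0.23 (1.74-fold, adjusted p = 0.0315) and -0.91 ± 0.28 (adjusted p = 0.0466).

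Fasting changed Smox by 0.13 ± 0.23 and 0.20 ± 0.28 in mFoxO-TKO and by -0.57 ± 0.23 and -0.69 ± 0.28 in WT (adjusted p of 0.0815 and 0.0899 for WT). In both WT groups replicates 1 and 2 (slide 1) had higher Smox levels than replicates 3 and 4 (slide 2) on both probes. With slide as a block the WT fasting effect passed on both probes (adjusted p of 0.0229 and 0.0256), as it did with quantile scaling (0.0226 and 0.0284), the other 75th percentile (0.0255 and 0.0352) and the authors' value table (0.0208 and 0.0278). The difference between the fasting effects was 0.70 ± 0.32 and 0.89 ± 0.40 and did not pass (adjusted p of 0.371 and 0.353). Within slides the fed knockout difference of the brighter probe was -1.71 on slide 1 and -1.29 on slide 2, and passed on neither with 2 mice per group (adjusted p of 0.069 and 0.134). Both fed knockout calls held without any 1 array. The fasted knockout call of the brighter probe was lost without fasted WT replicate 1 or 2 or fasted mFoxO-TKO replicate 4 (adjusted p up to 0.0977), and that of the other probe in 9 of 16 such fits (adjusted p up to 0.131), among them those without each of these 3 arrays. Both fasted knockout calls were also lost with normexp (adjusted p of 0.0673 and 0.0518), with no filter on dim probes (0.0931 and 0.124), with only the 2 compared groups (0.0755 and 0.0946) and within each slide, and that of A_66_P107703 with quantile scaling (adjusted p = 0.0528).

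Sat1 encodes the acetyltransferase that marks spermidine and spermine for oxidation or export. Its 1 probe (A_55_P1989321) rose with fasting in WT muscle. The relative levels were 2.28, 2.35, 1.92 and 1.81 in fasted mFoxO-TKO mice and 2.39, 2.52, 2.08 and 1.65 in fed mFoxO-TKO mice, against 2.63, 2.57, 2.28 and 2.59 in fasted WT mice and 1.56, 1.80, 1.61 and 1.65 in fed WT mice. The WT groups did not overlap, and both mFoxO-TKO groups spread over most of the range between them. The fasting effect was -0.07 ± 0.18 in mFoxO-TKO (adjusted p = 0.865) and 0.87 ± 0.18 in WT (1.82-fold, adjusted p = 0.00247), and in WT it was 0.93 on slide 1 and 0.81 on slide 2, both past the threshold. The difference between the effects was -0.94 ± 0.25 and did not pass (adjusted p = 0.0758), whereas it passed with slide as a block (adjusted p = 0.0151), with the other 75th percentile (0.0479) and with the authors' value table (0.0226). The knockout changed Sat1 by -0.43 ± 0.18 in fasted mice and by 0.51 ± 0.18 in fed mice, without a call in either state (adjusted p of 0.146 and 0.237), and with slide as a block the fasted difference passed (adjusted p = 0.0421).

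Azin1 encodes antizyme inhibitor 1, which binds antizyme in place of ornithine decarboxylase. It fell with fasting on 2 of 3 probes in each genotype, though not on the same 2, and none of its calls in any comparison passed with normexp background correction (adjusted p from 0.0632 to 0.221). The probe called in both (A_52_P24631) read 0.49, 0.62, 0.43 and 0.30 in fasted mFoxO-TKO mice and 1.22, 1.19, 1.34 and 1.17 in fed mFoxO-TKO mice, against 0.04, 0.06, -0.22 and 0.45 in fasted WT mice and 0.73, 0.48, 0.39 and 0.77 in fed WT mice. The 4 fed mFoxO-TKO mice stood above all other mice, and the fasted mFoxO-TKO mice overlapped both WT groups. Fasting changed it by -0.77 ± 0.14 in mFoxO-TKO (1.71-fold lower, adjusted p = 0.00296) and by -0.51 ± 0.14 in WT (adjusted p = 0.0139). The brightest probe (A_51_P234544) changed by -0.72 ± 0.22 in mFoxO-TKO (adjusted p = 0.0478) and by -0.27 ± 0.22 in WT (adjusted p = 0.428). The dimmest (A_52_P117313) changed by -0.71 ± 0.26 in mFoxO-TKO (adjusted p = 0.107, and 0.0486 with slide as a block) and by -0.99 ± 0.26 in WT (adjusted p = 0.0127), and it was well above background on 3 of the 4 fasted WT arrays.

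All 3 Azin1 probes had higher means in mFoxO-TKO than in WT muscle in both feeding states, with 1 call in each. Among fasted mice the changes were 0.34 ± 0.22, 0.38 ± 0.14 (adjusted p = 0.0983, and 0.0211 with the other 75th percentile) and, for the dimmest probe, 0.90 ± 0.26 (adjusted p = 0.0365, and 0.0505 with quantile scaling). Among fed mice they were 0.79 ± 0.22 (adjusted p = 0.106), 0.62 ± 0.26 (adjusted p = 0.361) and, for A_52_P24631, 0.64 ± 0.14 (adjusted p = 0.036). The fed groups did not overlap on any of the 3 probes, against 10% of all probes. The brightest probe passed in fed mice with the authors' value table (adjusted p = 0.0383) and without fed mFoxO-TKO replicate 4 (adjusted p = 0.0429), but not in the main fit. The fasted knockout call was lost without fasted WT replicate 1 or 3 or fasted mFoxO-TKO replicate 1 or 2 (adjusted p up to 0.109). The fed knockout call was lost without any 1 of the fed mice other than fed WT replicate 4 (adjusted p up to 0.119), and the mFoxO-TKO fasting call at 0.0478 in 11 of 16 such fits (adjusted p up to 0.143). The fasting calls of A_52_P24631 held without any 1 array but were lost within either slide, where the changes ran from -0.89 to -0.47 over both genotypes. Its WT fasting call was also lost with no filter on dim probes (adjusted p = 0.0528) and with only the 2 compared groups (adjusted p = 0.0562). With no filter the fed and fasted knockout calls and the mFoxO-TKO call of the brightest probe were lost too (adjusted p of 0.146, 0.102 and 0.141).

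Azin2, a second antizyme inhibitor known mainly from brain and testis, was dim and had 0 calls. Its 2 probes had relative levels between -3.71 and -2.34 over all 16 arrays. The A_55_P2084248 probe was well above background on 3 of the 4 fed mFoxO-TKO and 3 of the 4 fasted WT arrays and on all arrays of the other groups. The fasting effect on that probe was 0.40 ± 0.15 in mFoxO-TKO (adjusted p = 0.127) and 0.19 ± 0.15 in WT (adjusted p = 0.437).

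The antizymes are themselves made only when polyamines induce a ribosomal frameshift on their mRNA, a step that mRNA levels do not show. Oaz1 had 1 probe, with relative levels of 8.01 and 7.49 in 2 fasted mFoxO-TKO mice and between 7.58 and 8.13 in fed mFoxO-TKO mice, against 7.52 to 8.00 in fasted WT and 7.71 to 8.10 in fed WT mice. The values of fasted mFoxO-TKO replicates 1 and 3 were left out because their spots were marked as uneven or as population outliers, so n = 2 in that group. All 4 groups overlapped and Oaz1 had 0 calls, with fasting effects of -0.06 ± 0.20 in mFoxO-TKO (95% interval -0.50 to 0.37) and -0.13 ± 0.16 in WT (95% interval -0.49 to 0.23).

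Oaz2 fell with fasting in WT muscle on both of its probes. The brighter probe (A_55_P1993599) read 7.29, 7.12, 6.69 and 6.76 in fasted mFoxO-TKO mice and 7.39, 7.16, 7.23 and 6.99 in fed mFoxO-TKO mice, against 6.64, 6.99, 6.39 and 6.56 in fasted WT mice and 7.18, 7.16, 6.99 and 7.15 in fed WT mice. The highest fasted WT mouse lay just below the lowest fed WT mouse, and the mFoxO-TKO groups overlapped. Fasting changed it by -0.23 ± 0.16 in mFoxO-TKO (adjusted p = 0.42) and by -0.48 ± 0.16 in WT (adjusted p = 0.0359). The second probe (A_52_P90289) had relative levels of 2.13 to 2.30 in fasted and 2.34 to 2.64 in fed mFoxO-TKO mice, against 1.55 to 2.12 in fasted WT and 2.32 to 2.64 in fed WT mice. On it the fasting effect was -0.25 ± 0.13 in mFoxO-TKO (adjusted p = 0.255) and -0.62 ± 0.13 in WT (1.54-fold lower, adjusted p = 0.0025). The difference between the effects was 0.25 ± 0.22 and 0.37 ± 0.18, and neither passed (adjusted p of 0.724 and 0.42). Among fasted mice, mFoxO-TKO minus WT was 0.32 ± 0.16 and 0.37 ± 0.13 and did not pass (adjusted p of 0.221 and 0.0808), although the groups of the second probe did not overlap. Both probes passed as higher in fasted mFoxO-TKO muscle with quantile scaling (adjusted p of 0.0154 and 0.0304), the other 75th percentile (0.0376 and 0.0291) and the authors' value table (0.0179 and 0.0207). Among fed mice the changes were 0.07 ± 0.16 and -0.01 ± 0.13. The WT fasting call of the brighter probe was lost with normexp (adjusted p = 0.114) and with no filter on dim probes (adjusted p = 0.102). It was also lost without fed WT replicate 1, 2 or 4 or fasted WT replicate 1, 3 or 4 (adjusted p up to 0.101), and within slide 1 neither probe passed (-0.36 and -0.35), while both passed within slide 2 (-0.60 and -0.89).

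**Figure D3:**
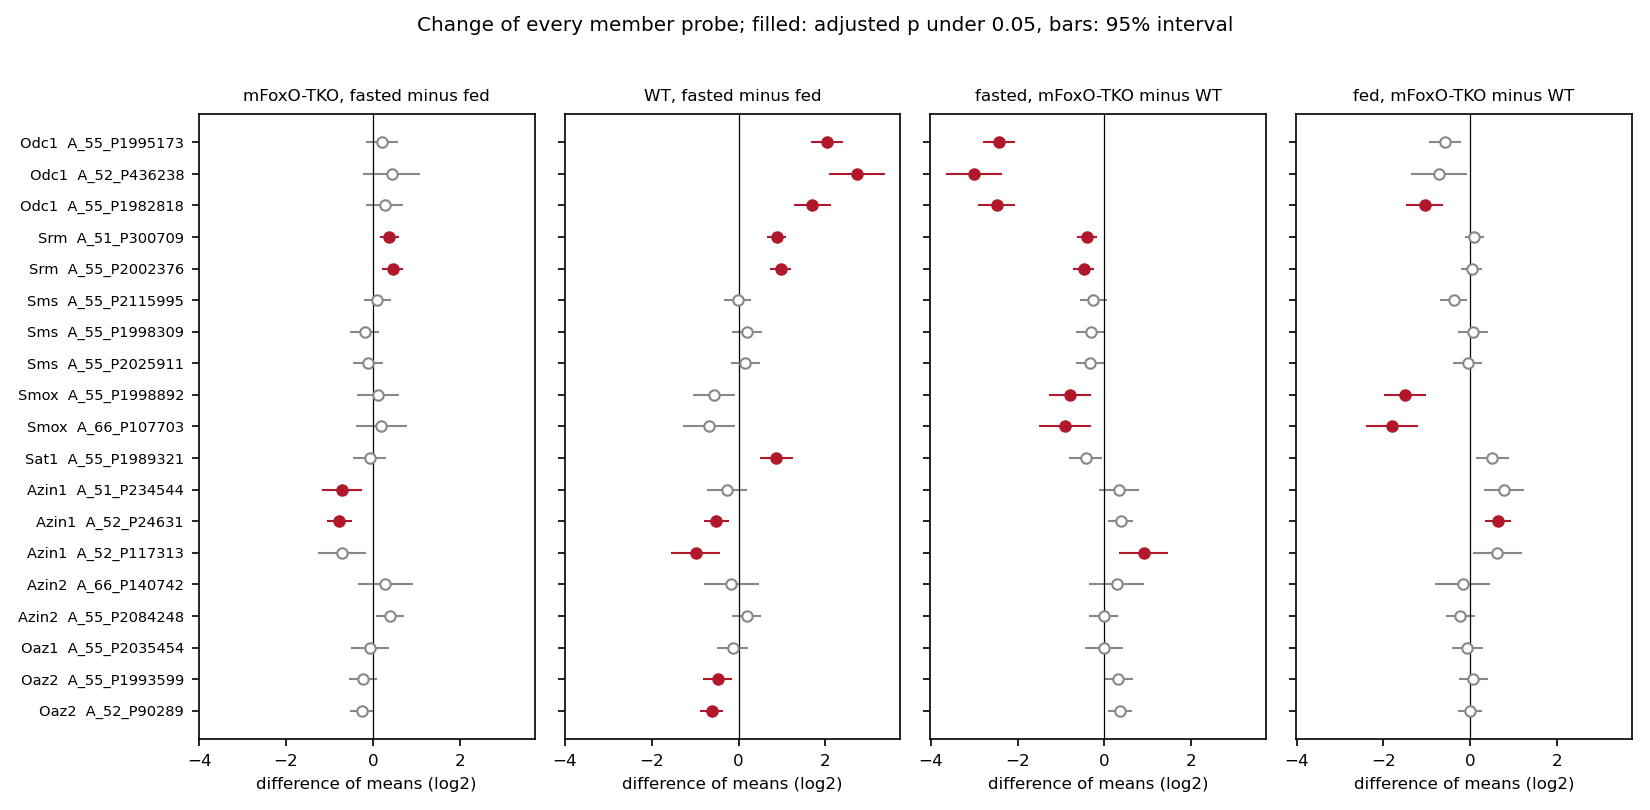
Difference of group means (log2) with its 95% interval for the 19 probes, in 4 panels of 1 comparison each; filled points have an adjusted p under 0.05 over all 28570 probes. The 3 Odc1 probes lie between 0.20 and 0.43 for fasting in mFoxO-TKO and between 1.70 and 2.73 for fasting in WT, and the 2 Smox probes have the lowest values among fed mice.

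Genes next to the pathway were counted on their brightest tested probe, in lists made with earlier results of these data known. Of 11 genes of arginine and ornithine supply, 8 were tested. In mFoxO-TKO muscle 1 rose and 2 fell with fasting, and in WT muscle 3 rose and 2 fell, where 10.3% and 24.3% of all probes passed. The largest rise was that of Slc7a2, a transporter of arginine and other cationic amino acids, by 0.68 ± 0.19 in mFoxO-TKO (adjusted p = 0.0338) and by 1.89 ± 0.20 in WT (3.7-fold, adjusted p = 2.05e-05, with 3 fasted WT arrays). Slc7a1, a second transporter of this kind, changed by 0.96 ± 0.15 in WT and by -0.90 ± 0.21 in the difference of the fasting effects (mFoxO-TKO minus WT, adjusted p = 0.0392), and Slc7a2 by -1.20 ± 0.28 in that difference (adjusted p = 0.0389). These were the 2 calls of the list in that comparison, where 2.16% of all probes passed. Among fasted mice, where 12.3% of all probes passed, both were lower in mFoxO-TKO, with changes of -1.66 ± 0.20 for Slc7a2 and -0.54 ± 0.15 for Slc7a1. Gatm, which turns arginine and glycine into ornithine and the precursor of creatine, fell by 2.30 ± 0.33 (4.92-fold) with fasting in mFoxO-TKO and by 1.12 ± 0.33 in WT, and it was 3.93-fold higher in fed mFoxO-TKO than in fed WT muscle (adjusted p = 0.00753). Slc25a15, the mitochondrial ornithine carrier, fell by 0.65 ± 0.17 in mFoxO-TKO and by 1.05 ± 0.17 in WT. Oat also rose with fasting in WT, by 0.63 ± 0.15 (1.55-fold, adjusted p = 0.00569), and had no call in mFoxO-TKO (0.37 ± 0.15, adjusted p = 0.135).

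The other lists held fewer calls for fasting, where 10.3% of all probes passed in mFoxO-TKO and 24.3% in WT. Of 9 tested genes of the methionine cycle and methylthioadenosine salvage, 0 passed in mFoxO-TKO and 1 in WT: Mat2a, which makes the S-adenosylmethionine that Amd1 uses, fell by 0.63 ± 0.13 in WT (adjusted p = 0.00284) and was higher in fasted mFoxO-TKO than in fasted WT muscle by 0.66 ± 0.13 (adjusted p = 0.00403). Of 6 tested genes of polyamine oxidation, acetylation and transport, 1 fell in mFoxO-TKO, while 2 rose and 1 fell in WT. Paox, the oxidase of acetylated polyamines, and Slc3a2, a subunit of amino acid transporters, rose in WT by 0.76 ± 0.17 and 0.90 ± 0.13 (adjusted p of 0.00479 and 0.00021). Slc18b1, a vesicular polyamine transporter, fell 1.95-fold in mFoxO-TKO and 2.2-fold in WT. The 4 genes that form hypusine, the spermidine-derived residue of eIF5A, had 0 calls in the 5 comparisons. None of these 3 lists had a call among fed mice or in the difference of the fasting effects, where 1.36% and 2.16% of all probes passed.

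**Figure D4:**
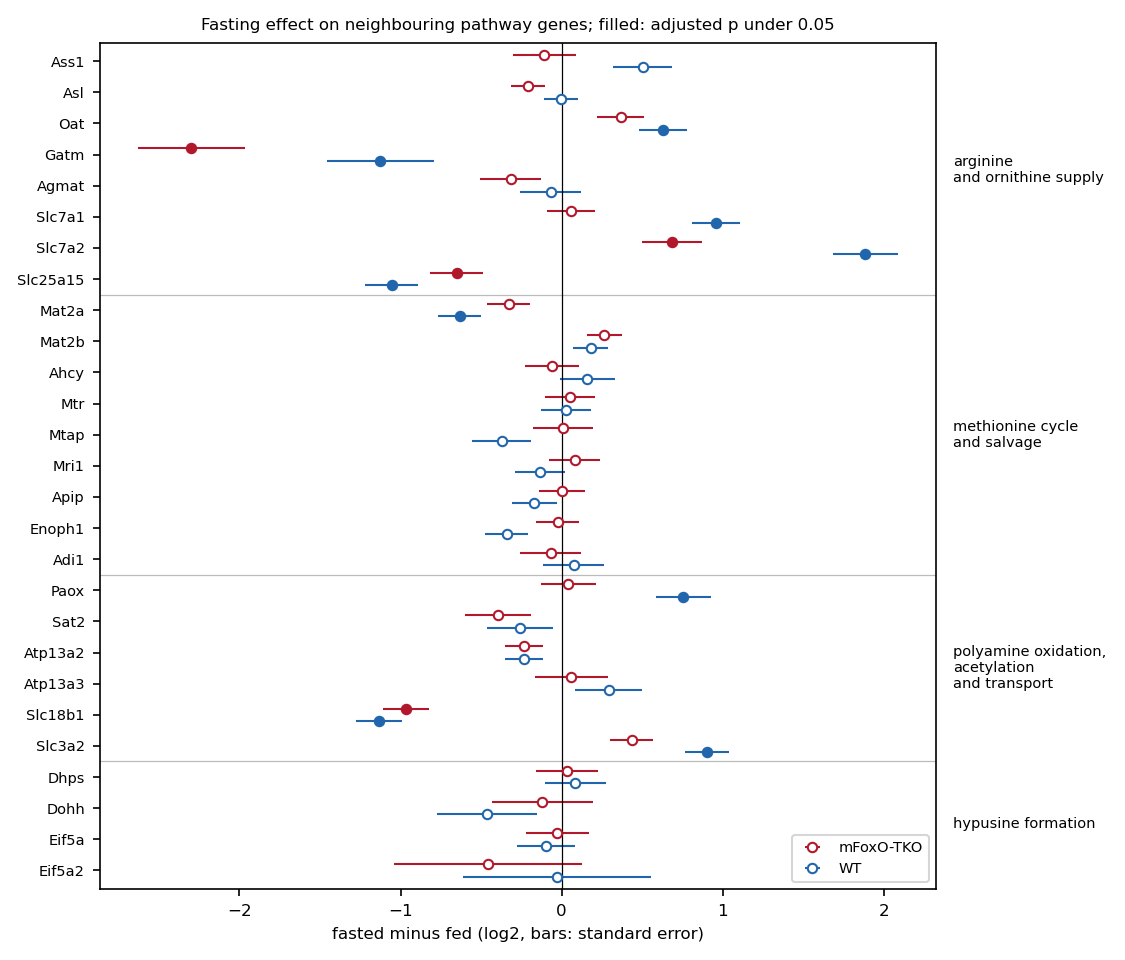
Fasting effect (fasted minus fed, log2, ± standard error) on the brightest tested probe of 27 genes around the polyamine pathway, in mFoxO-TKO and in WT muscle; filled points have an adjusted p under 0.05. Slc7a2 is the highest WT point (1.89) and Gatm the lowest mFoxO-TKO point (-2.30).

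Some markers of other cells passed with fasting, where 10.3% of all probes passed in mFoxO-TKO and 24.3% in WT muscle. Of 5 fibroblast markers, 2 were lower in fasted mFoxO-TKO mice and 3 in fasted WT mice, and Lum was 4.66-fold lower in mFoxO-TKO and 6.18-fold lower in WT. The summed linear signal of the 5, relative to the array's 75th percentile and over arrays with all 5 values, was 220.1 to 265.6 in fasted and 310.2 to 389.8 in fed mFoxO-TKO mice, and 236.7 to 361.2 in fasted and 351.5 to 415.6 in fed WT mice. Of 5 tested macrophage and leukocyte markers, 2 were lower with fasting in mFoxO-TKO and 0 passed in WT, with summed signals of 8.26 to 19.1 in fasted and 13.1 to 29.8 in fed mFoxO-TKO mice, and 8.98 to 11.4 in fasted and 9.19 to 15.9 in fed WT mice. The other lists had at most 1 call per genotype. Of 5 endothelial markers, Kdr fell in WT, with list medians of 0.15 in mFoxO-TKO and -0.32 in WT, and of 2 muscle stem cell markers Pax7 fell in WT, with medians of -0.08 and -0.53. Of 4 Schwann cell markers Mbp rose in WT while the list medians were -0.10 in mFoxO-TKO and -0.56 in WT. Of 4 fat cell markers Cidec rose in both genotypes while the medians were -0.23 in mFoxO-TKO and -0.35 in WT, and the other 3 had changes below 0 without a call. None of the 3 erythroid markers passed. Cd163, Lep and Myf5 were not well above background on every array of any group and were not tested. No marker list had a call in either knockout comparison or in the difference of the fasting effects. There 12.3% (knockout, fasted mice), 1.36% (knockout, fed mice) and 2.16% (difference) of all probes passed. The part of these cells in the fasting effects on Odc1, Srm, Sat1, Azin1 and Oaz2 was not tested.

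Across the 16 arrays and 12104 genes with a symbol, the genes whose pattern was most like that of Odc1 were Pir, Spice1 and Ier3, with Pearson correlations of 0.984, 0.984 and 0.982. They changed by 0.31, 0.17 and 0.28 with fasting in mFoxO-TKO and by 1.77, 1.78 and 1.90 in WT. The closest to Srm were Rasa3, Hgs and Dnajb9 (0.978, 0.97 and 0.969), to Sat1 Cdk9, Nap1l1 and Cerk (0.923, 0.923 and 0.908), and to Oaz2 Zcchc17, Ptges3l and Bcs1l (0.973, 0.968 and 0.967). The 16 arrays share 4 groups and 2 slides, so they are not independent points.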

How the data were processed

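Quadriceps RNA of 16 mice in 4 groups was hybridised in 1 colour to Agilent mouse arrays. The deposited intensity of each spot is Agilent's processed signal, with background subtracted and a spatial trend removed per the file headers. Headers name Feature Extraction 11.0.1.1 and build mm9, and the submitters' processing notes name version 9.5. Deposited marks of 0 or 1 say, per the file headers, which spots were well above background, saturated, uneven or population outliers. The scores of the authors' value table had medians of 22 to 25 and a 75th percentile of 100. Bright scores, well above that percentile, lie within 2% of a per-array multiple of those intensities. Dimmer scores were not compared this way, but over all rows the Spearman correlation was 0.9996 to 0.9998 per array. The scores were therefore taken as linear and uncentred. That table served only as an alternative.

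Spots marked as uneven or as population outliers, together called uneven spots below, were dropped (0.143% to 3.28% per array). Repeats were averaged, leaving 55681 probes of 59305 spots. RefSeq accessions gave 28331 probes a symbol through a GRCm38.p6 table. Tests covered the 28570 probes that were well above background throughout 1 group or more. Values are log2 signal minus the array's 75th percentile over all probe spots, computed here. Group means were fitted to the 16 arrays in limma 3.58.1 (R 4.3.3, lmFit and eBayes, 12 residual and 2.54 prior degrees of freedom), with Benjamini-Hochberg adjustment over all tested probes at 0.05. The fit was tested on simulated data, and motifs were searched with Python 3.11.15. The Foxo4 bound sets the WT mean against the lowest signal well above background on the mFoxO-TKO arrays. The p-values measure only the spread between these arrays, in which differences between mice, slides and rows are mixed, and 4 arrays per group limit the precision.

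The members, lists and comparisons were chosen with earlier results of these data known. All member probes are reported, neighbouring genes are named where they passed in their list, and genes of like pattern are the 3 highest correlations.

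Same-numbered arrays share a slide and a row. Their deviations from the group means correlated above 0.1 for all 4 numbers in 3 comparisons (0.103 to 0.381), but not for fasting in WT, where the lowest value was 0.0565. Only the replicate block, an alternative, used the number, and it was read as a pairing in those 3 comparisons only. These correlations cannot tell a pairing of mice from a shared slide or row. The main fit of every comparison had no block for slide or number, so its p-values are unpaired. The alternatives were normexp with an offset of 50 on median signals (mean signals were not used here), quantile scaling, a 75th percentile over spots well above background on all arrays, the authors' table with a pseudocount of 1, other filters on dim probes, uneven spots kept, the brightest probe per gene, slide and replicate blocks, single slides, only the compared groups, and each array left out in turn.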

Additional observations from a re-analysis of the deposited data

Results flagged for a closer look

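The fasting effect on Odc1 differed between the genotypes by the test of the difference itself on each of its probes. The difference (mFoxO-TKO minus WT) was -1.837 on the brightest probe, -2.292 on the second and -1.428 on the dimmest, on the log2 scale.

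Among 87 sets of 4 values (22 probes in 4 groups, without 1 group that had 2 values), 5 held a value far from the other 3, and chance flags about 1 in 20 such sets. Fasted mFoxO-TKO replicate 4 was the lowest of its group for Smox (A_55_P1998892, 4.616), and without it the fasted knockout call of that probe was lost. Fed mFoxO-TKO replicate 2 was the highest of its group for Azin2 (A_55_P2084248, -3.152). Fasted WT replicate 3 was the lowest of its group for Sat1 (2.281). Fed WT replicate 1 was the highest of its group for Sms (A_55_P2025911, 2.874). Fed WT replicate 3 was the lowest of its group for Oaz2 (A_55_P1993599, 6.994). The 5 values came from 5 different mice.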

How the results depend on the processing

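Of 3063 values of single member or Amd2 probes under an alternative, 2859 kept their call and direction or were uncalled in both fits. Another 152 lost a call and 52 gained one. No called value reversed, and 62 uncalled values changed sign. Counts of member probes called moved by over 1.5 times as follows. Fasting in mFoxO-TKO (4) had 2 calls with normexp and 2 with the brightest probe per gene (9 probes), 1 with no filter on dim probes, 1 with the 2 groups alone, 0 within slide 1 and 1 within slide 2. Fasting in WT (10) had 4 with the brightest probe per gene and 6 within slide 1. The knockout in fasted mice (8) had 5 with normexp and 3 each with no filter, the brightest probe, slide 1, slide 2 and the 2 groups alone. The knockout in fed mice (4) had 2 with no filter, 1 with the brightest probe and 0 within either slide. The difference of the fasting effects (3) had 1 with the brightest probe and 0 within either slide. Fewer probes or mice enter the brightest-probe and single-slide fits, and the cause of the other moves was not tested. With 1 array left out, the counts ran from 1 to 4 (fasting, mFoxO-TKO), 9 to 12 (fasting, WT), 5 to 9 (knockout, fasted), 2 to 4 (knockout, fed) and 3 to 4 (difference). With the replicate block they were 4, 12, 10, 4 and 4 in the same order. For fasting in WT, where the numbers were not taken as a pairing, that block gave adjusted p of 0.0278 and 0.0369 for Smox and 0.0146 for the third Amd2 probe, and for the Sat1 difference 0.0286. Beside these and the values given above for Sms and Amd2 it changed no other call. Without fed or fasted mFoxO-TKO replicate 3 the count for fasting in mFoxO-TKO was 1, and without fed mFoxO-TKO replicate 4 it was 2. The knockout count in fasted mice was 5 without fasted mFoxO-TKO replicate 2 or 4 or fasted WT replicate 1, and in fed mice it was 2 without fed mFoxO-TKO replicate 3 or fed WT replicate 1 or 2. The 75th percentile over spots well above background on all arrays moved the median of all probes to -0.14 from -0.03 for fasting in WT, and 2853 of 8410 called probes were then higher, with 3494 of 6954 before. With that scaling 2626 of 4380 called probes were higher for the knockout in fasted mice (1537 of 3509 before) and 428 of 794 for the difference of the fasting effects (217 of 618 before). With normexp 1355 of 2016 were higher for fasting in mFoxO-TKO (1432 of 2949 before), and the authors' table gave 1880 of 3326 for the knockout in fasted mice and 440 of 862 for the difference. Azin2 and the dimmest Azin1 probe are limited by signal near background.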
